A study of Mus musculus with 4 samples.

Results

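The MHC class II genes were followed in primary mouse microglia exposed to lysophosphatidylserine (LysoPS), a lysophospholipid that acts on G protein-coupled receptors such as GPR34. The set was given by name and comprised 10 genes, H2-Aa, H2-Ab1, H2-Eb1, Cd74, Ciita, H2-DMa, H2-DMb1, H2-DMb2, H2-Oa and H2-Ob, among 51826 gene models in the deposited table. All 10 had a row in that table, and 9 passed the filter on low counts and were tested; H2-Oa did not pass it. The cells came from the brains of newborn C57BL/6 mice, freed of meninges, trypsinised, grown for 2 weeks as a mixed culture and shaken loose. The compared groups were 2 libraries of microglia treated with LysoPS for 4 h and 2 libraries of mock microglia, labelled untreated. No transgene, knockout or dose is given in the labels. The general treatment note speaks of a single LysoPS replicate, whereas 2 samples carry the LysoPS label, and the sample labels were followed. Nothing in the labels states that the 2 libraries of a group came from separate cultures or litters, so the p-values measure only the spread between these libraries, which may be technical.

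MHC class II molecules are pairs of an alpha and a beta chain that carry peptides from the endosomal pathway to the cell surface, where CD4+ T cells read them. The invariant chain CD74 fills the groove of new class II molecules and steers them to endosomes, where it is cut down to the fragment CLIP; H2-DM then exchanges CLIP for peptide, and H2-DO restrains H2-DM. Transcription of these genes depends on CIITA, a coactivator that does not bind DNA itself but docks on the RFX, CREB and NF-Y proteins at their promoters. Microglia of the healthy brain hold little class II and raise it on activation, interferon gamma being the classical inducer.

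The 4 libraries held between 30001098 and 45193959 counts. After TMM scaling, 4854 of 19057 tested genes passed an adjusted p of 0.05 in edgeR's quasi-likelihood test, which is 25.5% of them; 12.8% were higher and 12.6% lower in LysoPS libraries. Summed over the list of microglia and macrophage markers, the level was 5438 and 4861 CPM (counts scaled to the library's size) in LysoPS libraries, against 3865 and 3532 CPM in mock libraries. Of the 19 gene models of these markers, 11 were higher, 3 were lower and 5 did not pass. Astrocyte markers summed to 5106 and 5832 CPM in LysoPS libraries, against 10918 and 9805 CPM in mock libraries, so the cultures labelled microglia also held much astrocyte RNA, and less of it after LysoPS. In bulk RNA, a change in the number of cells of a type and a change in RNA per cell cannot be told apart.

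Because class II genes share a promoter module, the stretch of the proximal promoter that holds it is shown for 6 members. RefSeq promoter windows (GRCm38.p6, 250 bases before to 50 after the start) were at hand for 7 of the 10 members, in 8 windows; Cd74, Ciita and H2-Ab1 had no entry. The capitals mark a GNAAC core of the X box, the element bound by the RFX complex, and the Y box GATTGG, the inverted CCAAT box bound by NF-Y. Each line runs 5′ to 3′ on the strand of the gene.
H2-Aa: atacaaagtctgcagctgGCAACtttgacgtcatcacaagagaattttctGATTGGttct
H2-Eb1: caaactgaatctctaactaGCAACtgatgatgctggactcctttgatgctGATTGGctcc
H2-DMb1: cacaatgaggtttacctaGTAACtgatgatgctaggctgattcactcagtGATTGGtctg
H2-DMb2: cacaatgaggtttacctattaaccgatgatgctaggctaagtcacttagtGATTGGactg
H2-Oa: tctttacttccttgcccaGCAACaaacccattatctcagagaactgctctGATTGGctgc
H2-Ob: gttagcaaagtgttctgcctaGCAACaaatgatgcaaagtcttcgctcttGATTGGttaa
The H2-Aa stretch lies at chr17:34287863-34287922 on the minus strand. The others lie on the plus strand, at chr17:34305757-34305816 for H2-Eb1, chr17:34153079-34153138 for H2-DMb1, chr17:34145108-34145167 for H2-DMb2, chr17:34092285-34092344 for H2-Oa and chr17:34238797-34238856 for H2-Ob.

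GATTGG, searched on both strands, occurred in a window of all 7 members with an entry, against 16.1% of 32851 RefSeq promoter windows. A GNAAC core lying 25 to 35 bases upstream of GATTGG, motifs that cannot overlap at that spacing, occurred in 5 of the 7 members and in 0.651% of all windows. The X-to-Y distance was 32 bases in H2-Aa, 31 in H2-Eb1, 32 in H2-DMb1, 32 in H2-Oa and 29 in H2-Ob. H2-DMb2 had the Y box but no GNAAC at that distance, and its RefSeq start lay 1942 bases downstream of its deposited start. The RefSeq starts of H2-DMb1 and H2-Oa lay 119 and 39 bases downstream of the deposited ones. The stretches of H2-DMb1 and H2-DMb2 thus lie within the deposited gene models, and that of H2-Oa reaches into its own. Of the windows of H2-DMa, 1 had a Y box, but both belong to starts 12350 and 9664 bases upstream of the deposited gene and are not shown. The members with the pair were H2-Aa and H2-Eb1, which passed the test described below, H2-DMb1 and H2-Ob, which did not, and the untested H2-Oa. Cd74 and H2-Ab1, which also passed, had no window, and a relation of the module to the calls was not tested. A match of letters describes the window and does not show that a factor is bound there.

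The 3 chains of the peptide-presenting molecules and the invariant chain were each at least 2.28-fold higher in LysoPS microglia, whereas no tested editor gene and not the transactivator passed the test. The difference between these sets of genes was not itself tested, and the intervals of Ciita, H2-DMb2 and H2-Ob overlap that of H2-Ab1. Of 9 tested members, 4 were higher and 0 lower, read against 12.8% and 12.6% of all tested genes. Both LysoPS libraries lay above both mock libraries in CPM for 7 of the 9, against 32.5% of all tested genes. The 9 had a median of 0.34 on the log2 scale, beside -0.01 over all tested genes. In deposited TPM, transcript abundance scaled per length and per library, the sum of H2-Aa, H2-Ab1, H2-Eb1 and Cd74 was 161 and 146 in LysoPS libraries, against 50.4 and 47.3 in mock libraries. The sum of the other 6 members was 26.4 and 26.2 TPM in LysoPS libraries, against 25.7 and 23.9 TPM in mock libraries.

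**Figure D1:**
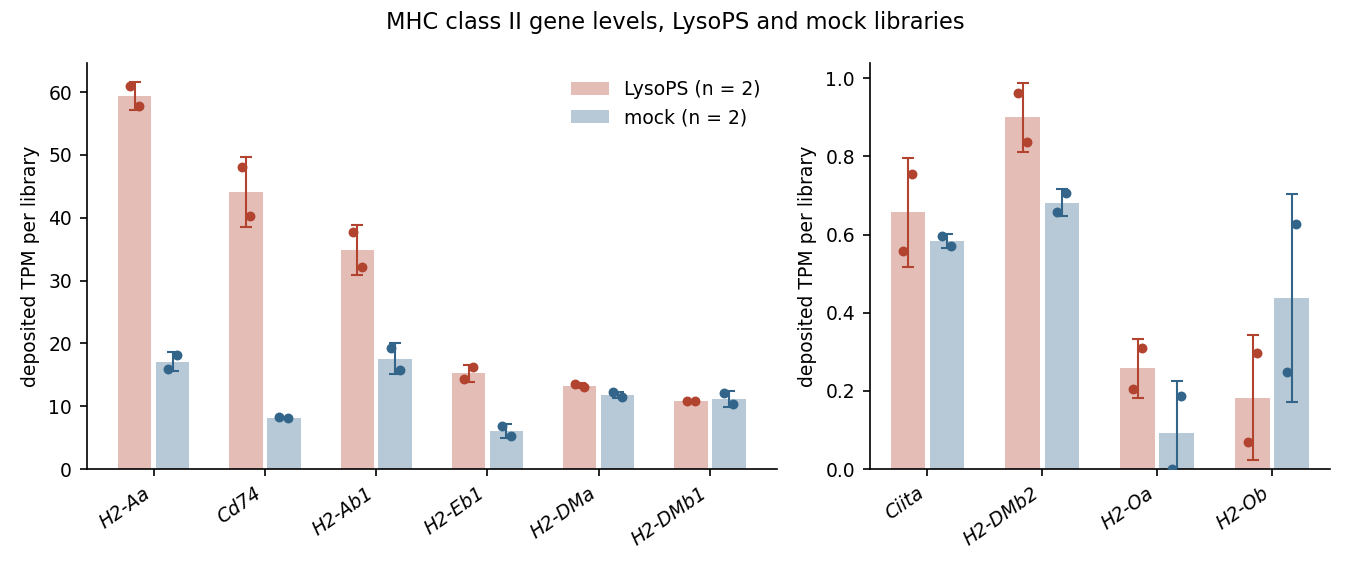
Deposited TPM of the 10 MHC class II genes, with LysoPS bars left of mock bars; points are libraries, bars their mean and whiskers the SD (n = 2 each), and the right panel has its own smaller scale. H2-Aa, Cd74, H2-Ab1 and H2-Eb1 stand clear of mock, with H2-Aa at 59.4 TPM in LysoPS libraries and 17.1 TPM in mock libraries, while H2-DMa and H2-DMb1 differ little and the 4 genes of the right panel stay below 1 TPM.

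H2-Aa encodes the alpha chain of I-A, the class II molecule that C57BL/6 mice display. It had 1229 and 1443 counts in LysoPS libraries, against 261 and 404 counts in mock libraries. Per length this was 60.9 and 57.8 TPM in LysoPS libraries, against 16 and 18.2 TPM in mock libraries. The groups did not overlap, and the lower LysoPS library was above the higher mock library by far more than either pair was apart. The log2 fold change was 1.97 ± 0.11 (SE; 95% interval 1.68 to 2.25; adjusted p = 0.000783, edgeR quasi-likelihood), a 3.91-fold difference. The gene (ENSMUSG00000036594) occupies 34282744 to 34287827 of chromosome 17 in GRCm38 and is read from the minus strand.

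H2-Ab1 encodes the beta chain that pairs with it. It had 795 and 849 counts in LysoPS libraries, against 323 and 368 counts in mock libraries, and 37.7 and 32.1 TPM in LysoPS libraries, against 19.3 and 15.8 TPM in mock libraries. The groups stood apart, with a smaller gap than for H2-Aa. The log2 fold change was 1.19 ± 0.16 (SE; 95% interval 0.77 to 1.60; adjusted p = 0.00804, edgeR), a 2.28-fold difference. When the null was set to a fold change of up to 1.5, H2-Ab1 missed the threshold with an adjusted p of 0.0525. H2-Ab1 (ENSMUSG00000073421) lies beside H2-Aa on the opposite, plus strand at 34263209 to 34269418.

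The balance of the 2 chains of I-A was read from the ratio of their levels. The ratio of H2-Aa to H2-Ab1 in TPM was 1.62 and 1.80 in LysoPS libraries, against 0.829 and 1.15 in mock libraries. The ratios did not overlap, but an exact two-sided permutation test over 2 and 2 libraries gave p = 0.333, the smallest that this design allows, so no ratio here can pass a threshold.

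H2-Eb1 encodes the beta chain of I-E. It had 302 and 424 counts in LysoPS libraries, against 117 and 122 counts in mock libraries, or 14.3 and 16.2 TPM in LysoPS libraries, against 6.87 and 5.25 TPM in mock libraries. The groups did not overlap. The log2 fold change was 1.51 ± 0.19 (SE; 95% interval 1.03 to 1.98; adjusted p = 0.00592, edgeR). The alpha chain gene of I-E is inactive in mice of the C57BL/6 haplotype, which therefore show no I-E on the surface, and its gene model H2-Ea-ps had 0 counts in all 4 libraries. H2-Eb1 (ENSMUSG00000060586) lies on the plus strand of chromosome 17 at 34305877 to 34316199.

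The remaining gene models of the locus were barely detected. H2-Eb2 had 19 and 11 counts in LysoPS libraries, against 2 and 8 counts in mock libraries. This was too few to be tested under the filter, and without any filter its adjusted p was 0.205 (edgeR). H2-Pb had 0 counts in all 4 libraries.

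Cd74, the invariant chain, showed the highest fold change of the 9 tested members. It had 1091 and 1126 counts in LysoPS libraries, against 156 and 203 counts in mock libraries. In TPM it reached 48.1 and 40.2 in LysoPS libraries, against 8.24 and 8.08 in mock libraries. Both LysoPS libraries lay far above both mock libraries, and the mock pair was nearly equal. The log2 fold change was 2.58 ± 0.16 (SE; 95% interval 2.18 to 2.98; adjusted p = 0.000904, edgeR), a 5.98-fold difference. Among all gene models ranked by TPM, Cd74 stood at 3518 and 4361 in LysoPS libraries, against 11266 and 11426 in mock libraries. Cd74 (ENSMUSG00000024610) is the only member outside chromosomes 16 and 17 and lies on the plus strand of chromosome 18 at 60803848 to 60812646; it overlaps the model of Mir5107 on the same strand, which had 1 count in each library.

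Cd74 was also set against the chain it escorts. The ratio of Cd74 to H2-Aa in TPM was 0.789 and 0.695 in LysoPS libraries, against 0.515 and 0.445 in mock libraries. H2-Aa was still the more abundant transcript of the pair in every library. In LysoPS libraries the order of TPM ran H2-Aa, Cd74, H2-Ab1, H2-Eb1, H2-DMa and H2-DMb1, and no neighbours in that order overlapped. In mock libraries H2-Ab1 and H2-Aa overlapped at the top, H2-DMa and H2-DMb1 overlapped below them, and Cd74 and then H2-Eb1 followed, so the editors stood above the invariant chain there and below it after LysoPS. In both groups the 4 genes Ciita, H2-DMb2, H2-Oa and H2-Ob stood far below the rest.

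**Figure D2:**
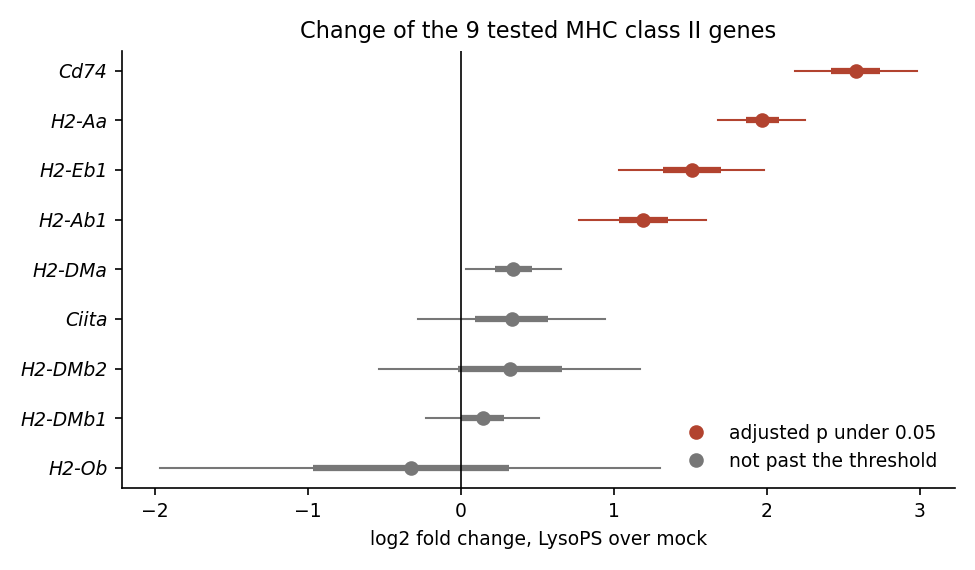
Log2 fold change, LysoPS over mock, of the 9 tested MHC class II genes from edgeR; dots are estimates, thick bars the SE and thin lines the 95% interval (n = 2 each). Cd74, H2-Aa, H2-Eb1 and H2-Ab1 lie between 1.19 and 2.58, and the other 5 intervals reach to 0.03 or below.

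None of the peptide editors passed the test. H2-DMa, the alpha chain of H2-DM, had 358 and 429 counts in LysoPS libraries, against 259 and 336 counts in mock libraries, or 13.6 and 13 TPM in LysoPS libraries, against 12.2 and 11.5 TPM in mock libraries. The groups did not overlap but lay close together. Its log2 fold change of 0.34 ± 0.12 (SE; 95% interval 0.03 to 0.65) had an unadjusted p of 0.0368 and an adjusted p of 0.104 (edgeR), and it was the only member to pass before but not after adjustment.

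H2-DMb1 and H2-DMb2 encode alternative beta chains of H2-DM. H2-DMb1 had 273 and 341 counts in LysoPS libraries, against 244 and 285 counts in mock libraries, or 10.9 and 10.9 TPM in LysoPS libraries, against 12.1 and 10.3 TPM in mock libraries. The groups overlapped, and the log2 fold change was 0.14 ± 0.14 (SE; 95% interval -0.23 to 0.51; adjusted p = 0.52, edgeR). H2-DMb2 had 19 and 28 counts in LysoPS libraries, against 15 and 21 counts in mock libraries, with a log2 fold change of 0.32 ± 0.34 (SE; 95% interval -0.54 to 1.17; adjusted p = 0.53). The paralogs share much sequence: 31.4% of the 31-base words of H2-DMb1 transcripts also occur in H2-DMb2, so their separate counts are uncertain. Added together they had 8.72 and 8.44 CPM in LysoPS libraries, against 8.41 and 7.07 CPM in mock libraries.

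The editor was also set against the molecules it works on. H2-DMa stood at 0.224 and 0.226 of the TPM of H2-Aa in LysoPS libraries, against 0.761 and 0.633 in mock libraries. Cd74 stood at 3.52 and 3.08 times the TPM of H2-DMa in LysoPS libraries, against 0.677 and 0.702 times in mock libraries. Neither ratio overlapped between the groups, with the same smallest possible exact p of 0.333.

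H2-Oa and H2-Ob, the chains of the H2-DM inhibitor H2-DO, are best known from B cells and were close to the detection limit. H2-Oa had 5 and 9 counts in LysoPS libraries, against 0 and 4 counts in mock libraries. H2-Ob had 4 and 18 counts in LysoPS libraries, against 10 and 16 counts in mock libraries. The H2-Ob groups overlapped, with a log2 fold change of -0.33 ± 0.64 (SE; 95% interval -1.97 to 1.30; adjusted p = 0.736, edgeR). At this depth the interval spans both a large decrease and a large increase.

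Ciita, the class II transactivator, was present at a low level and did not pass the test. It had 53 and 88 counts in LysoPS libraries, against 46 and 60 counts in mock libraries. In TPM this was 0.559 and 0.755 in LysoPS libraries, against 0.596 and 0.572 in mock libraries, and the groups overlapped on that scale. In CPM it was 1.58 and 2.01 in LysoPS libraries, against 1.49 and 1.39 in mock libraries, where the groups did not overlap. The log2 fold change was 0.33 ± 0.24 (SE; 95% interval -0.28 to 0.94; adjusted p = 0.366, edgeR). The upper bound lies below the estimates for Cd74, H2-Aa, H2-Eb1 and H2-Ab1. It lies above the lower bound for H2-Ab1, 0.77, and the difference between Ciita and these genes was not tested. The ratio of H2-Aa to Ciita in TPM was 109 and 76.5 in LysoPS libraries, against 26.9 and 31.8 in mock libraries. Ciita (ENSMUSG00000022504) lies on chromosome 16 at 10488178 to 10527564 and overlaps Dexi on the opposite strand. No source states whether strand entered the counting, and reads of the shared stretch cannot be assigned to either gene with certainty. Dexi had 408 and 479 counts in LysoPS libraries, against 417 and 589 counts in mock libraries.

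The marker values above moved with these results, so the class II genes were also read against them. Per 1000 TPM of summed microglia and macrophage markers, Cd74 stood at 6.13 and 5.56 in LysoPS libraries, against 1.38 and 1.43 in mock libraries. H2-Aa stood at 7.77 and 8 on that scale in LysoPS libraries, against 2.69 and 3.21 in mock libraries. H2-DMa stood at 1.74 and 1.81 in LysoPS libraries, against 2.04 and 2.03 in mock libraries. When the libraries were scaled to these markers, the mean scale of LysoPS libraries relative to mock moved by 0.53 on the log2 scale; Cd74 was then at 2.04, H2-Aa at 1.43, H2-Eb1 at 1.00 and H2-Ab1 at 0.66, each still past the threshold (adjusted p at most 0.0436, edgeR). On the same scale H2-DMa was at -0.19, Ciita at -0.18 and H2-DMb1 at -0.38, none past the threshold. The markers themselves did not move together: Aif1, an actin-bundling protein of activated microglia, was higher with a log2 fold change of 2.33 ± 0.10 (SE), while Trem2, a lipid-sensing receptor, was lower at -0.80 ± 0.07.

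**Figure D3:**
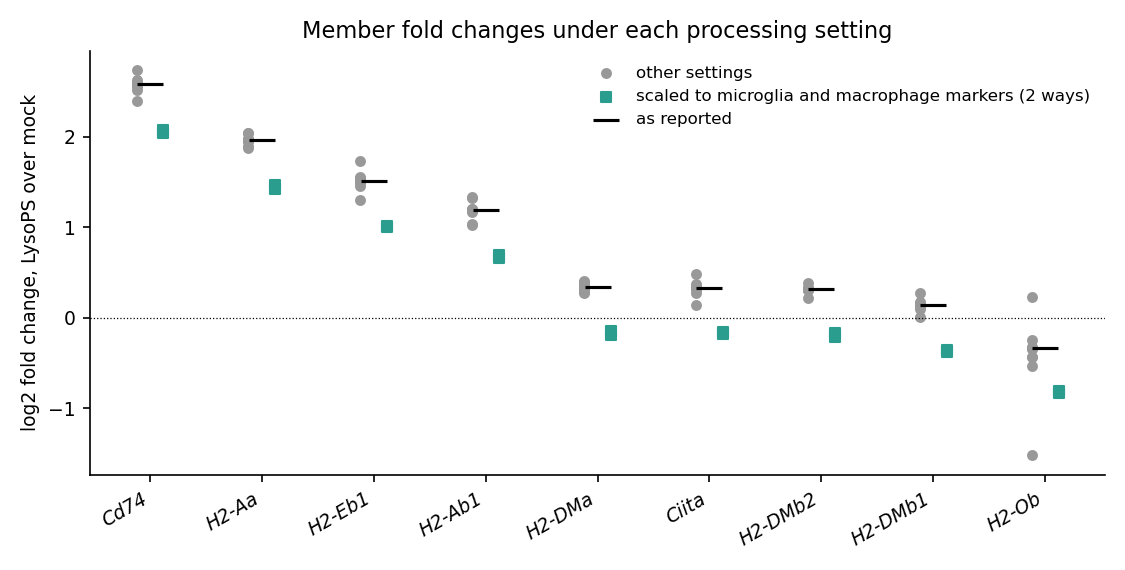
Log2 fold change, LysoPS over mock, of each tested member under every processing setting; black dashes are the values as reported, squares the 2 scalings to microglia and macrophage markers and grey points the other settings that gave a value for that gene. Cd74 stays between 2.04 and 2.74 and H2-Ab1 between 0.66 and 1.34, while H2-DMa, Ciita, H2-DMb2 and H2-DMb1 cross 0 under marker scaling.

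Other cells that display class II were looked for by their markers. Of 10 dendritic cell markers, 6 were tested, 1 was higher, 0 were lower and 5 did not pass. The list summed to 25.7 and 26.2 CPM in LysoPS libraries, against 16.3 and 15.5 CPM in mock libraries. The 1 that passed was Itgax, an integrin also made by activated microglia, at 1.32 ± 0.12 (SE; adjusted p = 0.0026, edgeR); Zbtb46, the factor that defines classical dendritic cells, had 7.23 and 9.36 CPM in LysoPS libraries, against 7.24 and 7.63 CPM in mock libraries, and Cd209a had none. Of 8 B cell markers, 2 had no count in any library, Fcmr among them, and the list summed to 12.5 and 10.9 CPM in LysoPS libraries, against 5.65 and 4.16 CPM in mock libraries. Among these, 2 were tested, 1 was higher, 0 were lower and 1 did not pass. The higher one was Cd79b, a B cell receptor subunit, with 5.94 and 5.28 CPM in LysoPS libraries, against 1.07 and 0.601 CPM in mock libraries. The other, Cd22, had 6.06 and 5.19 CPM in LysoPS libraries, against 4.28 and 3.26 CPM in mock libraries. These 2 genes made up most of the sum. Pax5 had 2 and 4 counts in LysoPS libraries, against 5 and 8 counts in mock libraries, and Ms4a1 had 1 and 1, against 0 and 0. T and NK cell markers summed to 2.09 and 2.22 CPM in LysoPS libraries, against 4.61 and 3.81 CPM in mock libraries, and 5 of the 8, Cd3e, Cd3d, Cd3g, Cd8a and Ncr1, had no count in any library. Of the 2 tested, 0 were higher and 1, Cd4, was lower at -1.08 (without mock replicate 1 its adjusted p was 0.0851, and without mock replicate 2 it was 0.0702).

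Markers of border macrophages and monocytes were the most abundant of these lists. The list summed to 511 and 484 CPM in LysoPS libraries, against 235 and 228 CPM in mock libraries. Of 7 tested, 3 were higher, 1 was lower and 3 did not pass. Clec12a, an inhibitory myeloid lectin, was higher at 1.83 ± 0.09 (SE), Ms4a7, a membrane protein of macrophages, at 1.42 ± 0.07 and Pf4, a platelet and macrophage chemokine, at 1.35 ± 0.14. The lower one was F13a1, at -0.55 ± 0.11 (SE; adjusted p = 0.0245, edgeR), a call that was lost in 4 of 14 alternatives. Mrc1, the mannose receptor, had 76.7 and 87.5 CPM in LysoPS libraries, against 78.8 and 80.4 CPM in mock libraries, and the monocyte marker Ly6c2 had no count in any library. The part of these cells in the class II result was not tested.

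Counts in this and the other lists are read against all tested genes, of which 12.8% were higher and 12.6% lower. Upstream of the members, genes for the proteins that assemble on class II promoters were looked at first. Of 12 genes of this list, 1 was higher, 1 was lower and 10 did not pass. The median was -0.01 on the log2 scale, the same as over all tested genes. The lower one was Rfx5, the DNA-binding subunit of the RFX complex, with 25 and 28.9 CPM in LysoPS libraries, against 38.0 and 36.4 CPM in mock libraries (log2 fold change -0.46 ± 0.10, SE; adjusted p = 0.0306, edgeR). That call did not hold without every library: Rfx5 had an adjusted p of 0.0572 without LysoPS replicate 1, 0.137 without mock replicate 1 and 0.107 without mock replicate 2. Ncoa1, a coactivator, was at -0.35 (adjusted p = 0.126) and Nfyc, a subunit of NF-Y, at 0.18 (adjusted p = 0.225); neither passed.

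Among genes known to raise Ciita, some receptor chains and factors passed the test and others did not. Of 12 tested genes, 6 were higher, 0 were lower and 6 did not pass, with a median of 0.34. Spi1, the myeloid factor PU.1, had 154 and 132 CPM in LysoPS libraries, against 35.6 and 28.7 CPM in mock libraries (log2 fold change 2.15 ± 0.14, SE; adjusted p = 0.00114, edgeR). Il4ra, the interleukin 4 receptor chain, was higher at 1.80 ± 0.08. Stat6 and Jak2, named after their values were seen, were higher at 0.50 ± 0.07 and 0.48 ± 0.07 (adjusted p = 0.0074 and 0.00845, edgeR). Their values under the alternatives are not reported here. Ifngr2, a chain of the interferon gamma receptor, was higher at 1.01 ± 0.07, but under scaling to microglia and macrophage markers it was at 0.48 and did not pass (adjusted p = 0.133). The other chain, Ifngr1, was at 0.10 ± 0.08 and did not pass (adjusted p = 0.417). Interferon gamma itself was barely present: Ifng had 0 and 0.0915 CPM in LysoPS libraries, against 0 and 0.0925 CPM in mock libraries, and was not tested. Irf1, an interferon-induced factor that acts on the Ciita promoter, had 22.5 and 28.2 CPM in LysoPS libraries, against 24.8 and 19.7 CPM in mock libraries, and did not pass (adjusted p = 0.436).

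Genes known to restrain Ciita or its inducers were mostly higher in LysoPS microglia. Of 13 tested genes, 10 were higher, 0 were lower and 3 did not pass, with a median of 0.92. Il10, an anti-inflammatory cytokine, had 1328 counts in the LysoPS libraries together and 0 in the mock libraries, at least 425-fold higher against a floor of 3 counts over the mock group. Socs3, an inhibitor of cytokine receptor signalling, had 97.6 and 92.0 CPM in LysoPS libraries, against 23.3 and 22.4 CPM in mock libraries (log2 fold change 2.05 ± 0.08, SE; adjusted p = 0.000378, edgeR). Bcl6, a transcriptional repressor, was higher at 1.16 ± 0.08, and Tgfb1, a cytokine that lowers class II in microglia, at 1.06 ± 0.08. Under scaling to microglia and macrophage markers Tgfb1 was at 0.53 and did not pass (adjusted p = 0.0971).

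The peptide processing list holds proteases that cut antigen and invariant chain, the thiol reductase gene Ifi30 and the protease inhibitor genes Cst3 and Cst7. Of its 12 genes, 7 were higher, Ifi30 and Cst7 among them, 1 was lower and 4 did not pass, with a median of 0.37. The summed level of the list was 8457 and 8304 TPM in LysoPS libraries, against 9336 and 9126 TPM in mock libraries. In CPM, the scale of the test, it was 10127 and 9547 in LysoPS libraries, against 9870 and 9409 in mock libraries. The sum was thus lower in LysoPS libraries in TPM only, and the groups overlapped in CPM. Ctsb, named after its values were seen, had 3521 and 3363 CPM in LysoPS libraries, against 3854 and 3725 CPM in mock libraries. Together with Ctsd, given below, it made up most of the CPM sum. Ctsc, which encodes the dipeptidyl peptidase cathepsin C, had 942 and 895 CPM in LysoPS libraries, against 216 and 200 CPM in mock libraries (log2 fold change 2.14 ± 0.07, SE; adjusted p = 0.000334, edgeR). Ctsz, a carboxypeptidase, was higher at 1.01 ± 0.09, Sppl2a, the intramembrane protease that removes the last stub of CD74, at 0.64 ± 0.09, and Lgmn, an asparaginyl endopeptidase, at 0.51 ± 0.07. Under scaling to microglia and macrophage markers Lgmn was at -0.02, Sppl2a at 0.12 and Ctsz at 0.48 (adjusted p = 0.107), and none of these 3 passed. Ctsd, an aspartic protease, was the gene that was lower and is named here after its values were seen: it had 2426 and 2306 CPM in LysoPS libraries, against 3309 and 3091 CPM in mock libraries (-0.44 ± 0.06, SE; adjusted p = 0.00871). Without mock replicate 1 that adjusted p was 0.0671.

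Genes that move class II molecules or remove them from the surface gave a mixed picture. Of 11 tested, 5 were higher, 1 was lower and 5 did not pass, with a median of 0.27. March1, a ubiquitin ligase that drives class II turnover in dendritic cells and B cells, had 25.3 and 31.1 CPM in LysoPS libraries, against 9.54 and 10.2 CPM in mock libraries (log2 fold change 1.51 ± 0.14, SE; adjusted p = 0.00263, edgeR). The length implied by its counts and FPKM was 3268 and 3244 bases in LysoPS libraries, against 4056 and 4214 bases in mock libraries. The mix of transcripts or counted reads thus differed between the groups together with the count, and the part of that shift in the fold change was not tested. Its relative March8 had 99.1 and 99.4 CPM in LysoPS libraries, against 104 and 102 CPM in mock libraries, and did not pass. The tetraspanin Cd37 was higher at 0.68 ± 0.11 and the motor protein gene Myo1e at 0.33 ± 0.07, while the tetraspanin Cd9 was lower at -0.33 ± 0.06. These 3 calls were lost without mock replicate 2, with adjusted p of 0.0637 for Cd37, 0.171 for Myo1e and 0.124 for Cd9 (edgeR), and without mock replicate 1 with 0.104 for Myo1e and 0.119 for Cd9; Myo1e turned to -0.19 when scaled to microglia and macrophage markers, and Cd37 was then at 0.15 and did not pass.

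**Figure D4:**
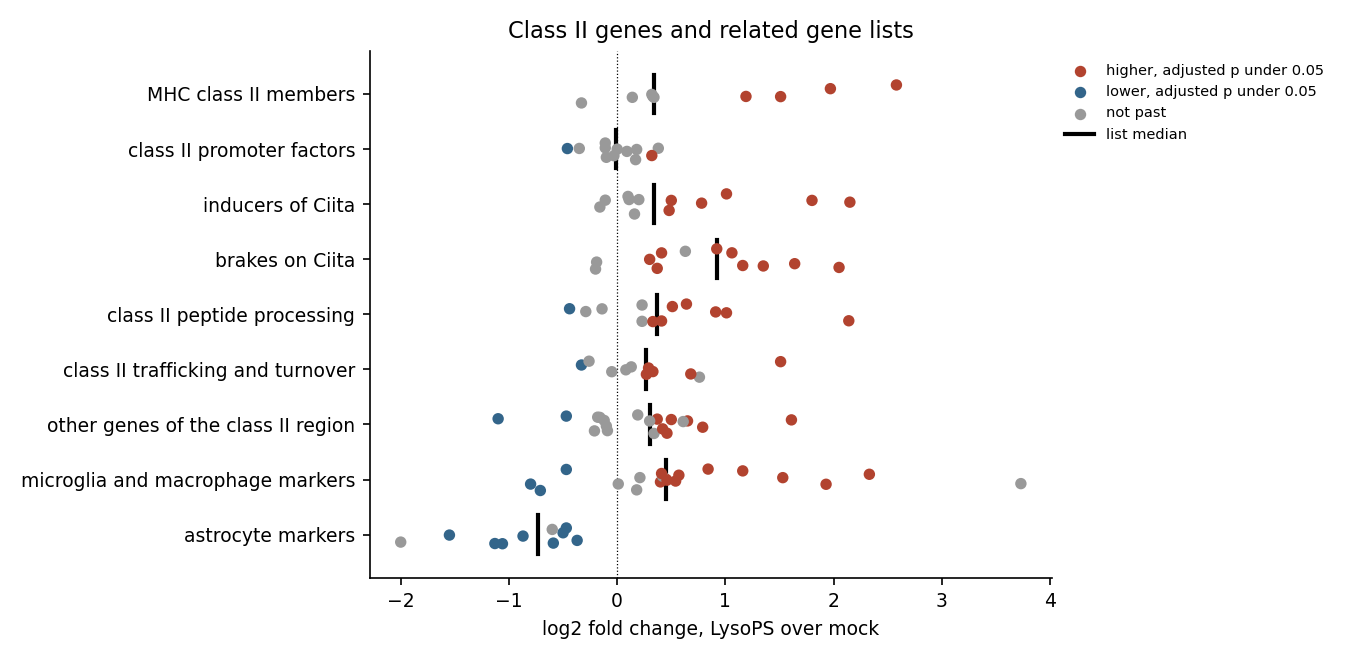
Log2 fold change, LysoPS over mock, of every tested gene in the class II set and in 8 related lists; red points are higher and blue points lower at an adjusted p of 0.05, grey points did not pass and black bars are list medians. Il10 is left out of the points because mock libraries had no count, but it is included in the median of the brakes on Ciita. The medians run from -0.73 for astrocyte markers to 0.92 for the brakes on Ciita.

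The 8 members on chromosome 17 lie within 224 kb, together with genes of other functions, and the fold changes along that stretch were uneven. Within 250 kb of the start of H2-Aa there were 35 gene models, of which 15 were tested, 8 of them not members. Of these 8, 3 were higher and 2 were lower. Psmb8, an immunoproteasome subunit of the class I pathway 90.1 kb from H2-Aa, had 48.5 and 37.3 CPM in LysoPS libraries, against 15.1 and 13.1 CPM in mock libraries (log2 fold change 1.61 ± 0.16, SE; adjusted p = 0.00343, edgeR). Its neighbours Psmb9 and Tap2, named after their values were seen, were higher at 0.79 and 0.65, and both calls were lost without mock replicate 2 (adjusted p = 0.191 and 0.0956) or mock replicate 1 (0.0624 and 0.0648); Psmb9 also lost its call without LysoPS replicate 1 (0.111). Under scaling to microglia and macrophage markers neither passed, with Psmb9 at 0.26 (adjusted p = 0.473) and Tap2 at 0.11 (adjusted p = 0.738). H2-DMa, H2-DMb1 and H2-DMb2, 134.8 to 152.6 kb from H2-Aa on the far side of these genes, did not pass, nor did H2-Ob at 48.9 kb.

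At the edge of that stretch Col11a2, a cartilage collagen gene, was lower, with 13.5 and 18.1 CPM in LysoPS libraries, against 33.3 and 34.8 CPM in mock libraries (log2 fold change -1.10 ± 0.16, SE; adjusted p = 0.00871, edgeR). The other lower gene was BC051142, at -1.26, named after its values were seen; its call was lost without LysoPS replicate 1 (adjusted p = 0.0509), mock replicate 1 (0.104) or mock replicate 2 (0.0985). In the wider list of 19 tested non-member genes of the class II region, 7 were higher, 2 were lower and 10 did not pass, with a median of 0.30. Tapbp, the class I loading factor tapasin, was higher at 0.42 ± 0.07 and Slc39a7, a zinc transporter, at 0.46 ± 0.08, and both were near 0 when scaled to microglia and macrophage markers, at -0.10 and -0.06. Without mock replicate 2 neither passed, with adjusted p of 0.104 for Tapbp and 0.112 for Slc39a7, and without mock replicate 1 Tapbp had 0.0568. H2-Ke6, the second lower gene of that list and named after its values were seen, was at -0.47 (adjusted p = 0.0358; 0.0653 to 0.177 without LysoPS replicate 2, mock replicate 1 or mock replicate 2).

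**Figure D5:**
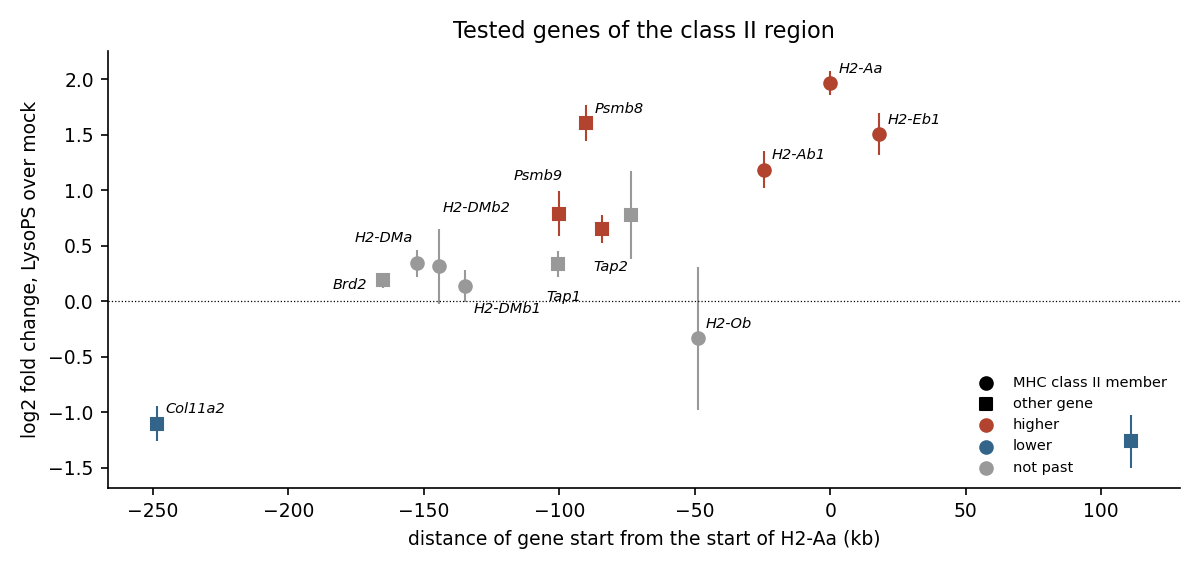
Log2 fold change, LysoPS over mock, with SE, of the 15 tested genes within 250 kb of H2-Aa against the distance of each gene start from that of H2-Aa in kb; circles are MHC class II members, squares other genes, and colours mark higher, lower and not past the threshold. H2-Ab1, H2-Aa and H2-Eb1 stand together at the right at 1.19 to 1.97, Psmb8 stands at 1.61, and the H2-DM genes at the left lie at 0.14 to 0.34.

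The genes whose profile over the 4 libraries lay nearest to that of Cd74, by Euclidean distance of centred log2 CPM, were Cd52, Hcls1, Cebpd, Hmox1 and Arhgdib, at distances of 0.0703 to 0.134. Cd52, a small leukocyte surface glycoprotein, had 281 and 226 CPM in LysoPS libraries, against 46.8 and 43.0 CPM in mock libraries. Cebpd encodes a C/EBP transcription factor and Hmox1 the haem-degrading heme oxygenase; Hmox1 had 1837 and 1585 CPM in LysoPS libraries, against 315 and 272 CPM in mock libraries. The genes nearest to Ciita were Tial1, Slc16a12, Papola, Pabpc4 and Pggt1b, at 0.0399 to 0.0753, and none of these passed the test. With 4 libraries such distances describe only a size of change and the order of the replicates.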

How the data were processed

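RNA of the 4 samples was purified with poly-T beads, made into libraries with a dual-mode mRNA kit and sequenced paired-end on an MGISEQ2000, per the labels' protocols. Reads were handled with FastQC 0.11.2, Trimmomatic 0.36, HISAT2 and StringTie on GRCm38, per the submitters' processing notes. The counting program, the annotation and the use of strand are not given in the sources used here. The table deposited by the authors gives raw counts, TPM and FPKM per gene and library, per the file headers; 27 symbols stored as dates were restored through their gene identifiers.

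Counts were tested with edgeR 4.0.16 (R 4.3.3; filterByExpr with a minimum count of 10, TMM scaling, quasi-likelihood F test) and adjusted by the Benjamini-Hochberg method over 19057 genes, without a block for replicate number. CPM uses TMM-scaled library sizes. The SE is the absolute log2 fold change over the square root of F. A common coefficient of variation of 0.150 was estimated on 2 residual degrees of freedom, which limits precision to large changes in genes of few counts. The script was tested on simulated data. TPM and FPKM were used only as levels and ratios. They were not tested, except for an exact permutation of log2 TPM ratios, which cannot pass a threshold with 2 and 2 libraries. Alternatives comprised DESeq2 1.42.0, limma 3.58.1 (voom), other scalings, other filters, robust dispersion, a fold null, a replicate block and leaving out each library.

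The members, the gene lists and the rule for named genes were chosen with earlier results of these data known. That rule names all members and other genes of the locus, up to 4 tested genes with the smallest p in each related list, the 5 nearest profiles to Cd74 and to Ciita with a mean of at least 5 CPM, and Ifng; other genes are marked in the text or, like Trem2, Irf1, Ifngr1, Ifi30, Cst3, Cst7, March8, Mrc1, Dexi and markers at 0, were chosen for naming with their values known. Some genes of the lists are counted but not reported here. Words of 31 bases shared between genes were counted in GENCODE M21 transcripts. Promoter windows came from RefSeq. Libraries of a group differed by far more than sampling noise (chi-square per degree of freedom 27.7 for LysoPS and 18 for mock) and so were not treated as repeat deposits of 1 library; this does not show that they came from separate cultures. No technical batch is given in the labels.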

Additional observations from a re-analysis of the deposited data

How the results depend on the processing

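The 4 calls among the members held under every alternative run, except that 3 remained under a null of a fold change up to 1.5, where H2-Ab1 missed the threshold (adjusted p = 0.0525). Of 122 member values under alternatives, 121 kept their side of the threshold and 1 lost it. The 642 values of 46 other genes comprised 571 that kept their call, 60 that lost it, 3 that gained it and 8 that turned direction. Those that turned under scaling to microglia and macrophage markers were Lgmn (-0.02), Myo1e (-0.19), Tapbp (-0.10) and Slc39a7 (-0.06); under scaling to markers with steady replicates, chosen after seeing the data, they were Nfyc (-0.31), Myo1e (-0.16), Tapbp (-0.07) and Slc39a7 (-0.03). Over all genes, the 4854 calls became 1064 under the fold null, 7386 under marker scaling (724 higher, 6662 lower) and 10673 under steady-marker scaling (934 higher, 9739 lower); leaving out 1 library gave 2165 to 5356, with 2223 without mock replicate 1 and 2165 without mock replicate 2. Of 79 tested genes of the 6 pathway and region lists, 41 were called (36 higher, 5 lower), against 13 under the fold null, 21 to 39 without 1 library, 30 under marker scaling (10 higher, 20 lower) and 46 under steady-marker scaling (14 higher, 32 lower). These scalings move the mean scale of LysoPS libraries relative to mock by 0.53 and 0.49 on the log2 scale. A library left alone in its group was assumed to vary like the other group.

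With the replicate number as a block, 5433 genes, 4 members and 46 list genes were called. Deviations of same-numbered libraries correlated at 0.078, and the labels do not say that a number marks a shared culture, so the pairing was not used. Of the 10 members, FPKM placed 8 with LysoPS above mock, and TPM placed 7, the untested H2-Oa among these 7. The share over all gene models on these scales is not given, so neither count is read as a result about the members. H2-Oa, H2-Ob and H2-DMb2 had at most 28 counts in a library. H2-Oa was not tested at this depth. For H2-DMb2 and H2-Ob, changes within their 95% intervals (-0.54 to 1.17 and -1.97 to 1.30) could not be told from none.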
